A study of Rattus norvegicus with 6 samples.

Results

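The transcripts of 4 genes that encode the main proteins of the interstitial kidney matrix were examined among the 23487 genes of the estimated count table: Col1a1 (ENSRNOG00000003897), Col1a2 (ENSRNOG00000011292), Col3a1 (ENSRNOG00000003357) and Fn1 (ENSRNOG00000014288). They were chosen by identifier as the 2 chains of type I collagen, the single chain of type III collagen and fibronectin. Bulk RNA sequencing was available for kidneys of 3 rats after sub-total nephrectomy (SNx) and of 3 non-operated rats (NoOp). According to the study's methods the animals were male Wistar Han rats, and SNx consisted of resection of most of the right kidney, followed by removal of the left. The SNx rats were killed once serum creatinine or proteinuria had passed a preset limit, so the groups are defined by operation and disease threshold and not by one time point, and the labels give no day or age. NoOp animals had no operation, which means that loss of kidney mass and surgery as such cannot be told apart.

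Fibrillar collagens are made as procollagen chains that fold into a triple helix before secretion, and then assemble into fibrils outside the cell. Type I procollagen is normally a trimer of chains encoded by Col1a1 and Col1a2, while type III procollagen is a trimer of Col3a1 chains alone. Fibronectin, encoded by Fn1, is a secreted glycoprotein that binds integrins and collagen and on which collagen fibrils can be laid down. In kidney fibrosis these proteins accumulate between the tubules, and fibroblasts, pericytes and myofibroblasts are regarded as major producers of the collagens.

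Total estimated counts ranged from 9572955 to 13140864 per library, with every SNx total below every NoOp total. The smallest count of any of the 4 genes in any library was 227, where counting error alone amounts to 6.64% of the value. Levels are given as CPM, the counts relative to a library size that was scaled with TMM (trimmed mean of M-values). Intervals from counting treat the estimated counts as read counts and cover counting error only. The methods count 3 rats per group, but the labels do not tie a library to an animal. The p-values take each library as the unit. Symbols could be tied to identifiers only for the 4 genes, so the tissue label was not checked against kidney markers and no fibroblast, leukocyte or tubular markers were measured beside the results. In bulk tissue, more producing cells and more transcript per cell cannot be told apart.

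All 4 transcripts were more abundant in the SNx kidneys. Col1a1 rose the most, by 12-fold, and Fn1 rose by 4.36-fold with the smallest error. Each of the 4 genes had a limma adjusted p under 0.05, against 19.2% of the 13644 genes tested that were called higher in SNx. In all 4 genes every SNx library lay above every NoOp library, which held for 27.1% of the genes tested. The median log2 fold change of the 4 genes was 2.62, and that of all genes tested was 0.01. SNx replicate 3 was the lowest SNx library for every one of the 4 genes.

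**Figure D1:**
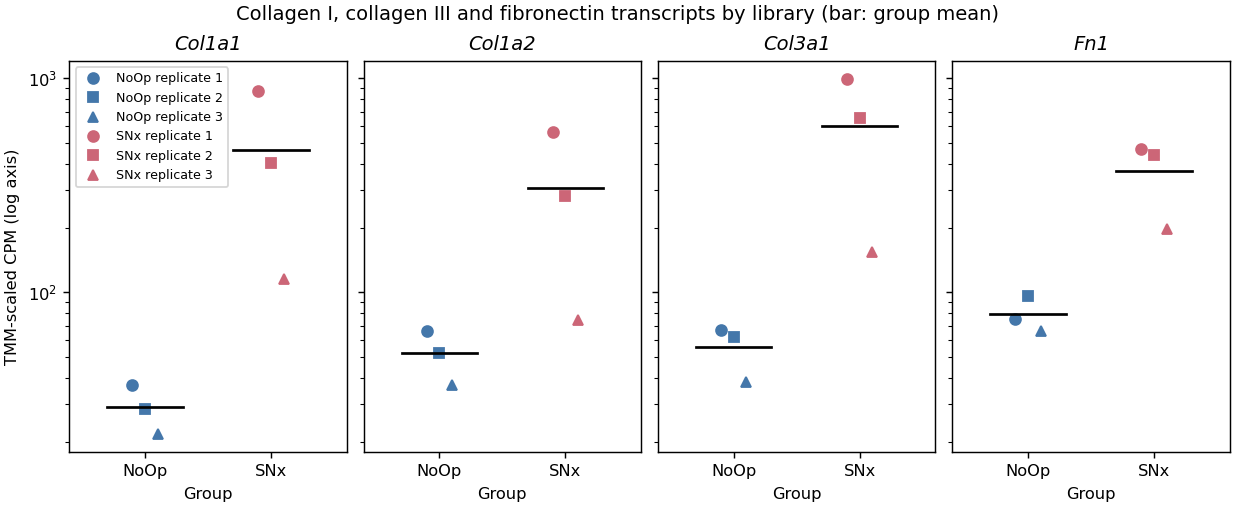
TMM-scaled CPM on a log axis for each gene, with 1 point per library, a symbol per replicate and a black bar at the group mean (n = 3 per group). SNx replicate 3 is the lowest SNx point in each panel, at 74.6 CPM for Col1a2 against 66.2 CPM in the highest NoOp library.

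Col1a1 encodes the alpha 1 chain of type I collagen, the chain present in more than one copy in each type I trimer. NoOp replicates 1 to 3 measured 36.9, 28.5 and 21.8 CPM, against 876, 402 and 116 CPM for SNx replicates 1 to 3. The groups did not overlap, and the lowest SNx library was 3.13 times the highest NoOp library. Mean levels were 29.1 ± 7.59 CPM in NoOp and 465 ± 384 CPM in SNx (SD, n = 3 each), a ratio of means of 16.0. The limma log2 fold change, an average on the log scale that is less affected by the highest library, was 3.58 (SE 0.65, limma adjusted p = 0.00644). This corresponds to a 12-fold increase with a 95% confidence interval from 4.22-fold to 33.9-fold. Of the genes tested, 1.19% had a larger rise. The gene moved from rank 5915 by mean CPM in NoOp to rank 181 in SNx.

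Col1a2 encodes the alpha 2 chain of type I collagen. Its level was 66.2, 52.2 and 37.1 CPM for NoOp replicates 1 to 3, compared with 561, 283 and 74.6 CPM for SNx replicates 1 to 3. SNx replicates 1 and 2 were far above the NoOp libraries, but SNx replicate 3 lay only just above NoOp replicate 1, with 706 and 681 estimated counts. The scaled ratio of these 2 libraries was 1.13, with an exact 95% binomial interval from 1.01 to 1.25. Without TMM scaling, on library totals, this ratio was 1.26. Group means were 51.8 ± 14.6 CPM in NoOp and 306 ± 244 CPM in SNx (SD, n = 3 each). The log2 fold change was 2.16 (SE 0.64, limma adjusted p = 0.0339), or 4.46-fold with a 95% confidence interval from 1.59-fold to 12.5-fold.

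The call for Col1a2 was lost in 5 of the 6 fits that left out 1 library. In those 5 fits fewer of all genes tested were called higher, from 1497 to 1970, against 2620 with all 6 libraries. Its log2 fold change was 2.34, 2.16 and 1.93 without NoOp replicates 1, 2 and 3 (limma adjusted p = 0.0643, 0.0822 and 0.102), close to the 2.16 of all libraries. It was 1.49 without SNx replicate 1 and 2.0 without SNx replicate 2 (limma adjusted p = 0.0849 and 0.101). Without SNx replicate 3 it passed, with a log2 fold change of 2.99 and a limma adjusted p = 0.000664.

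Promoter sequence from RefSeq was matched for 1 of the 4 genes, Col1a2; Col1a1, Col3a1 and Fn1 had no entry. The 100 bases from 250 to 151 bases before the RefSeq start of Col1a2 are shown because the ratio of Col1a1 to this partner chain separated the groups (at most 0.588 in NoOp and at least 1.42 in SNx), and because they hold motifs of a core promoter. They lie at chr4:33518307-33518406 on the plus strand of the GRCr8 build, which is not the build of the files. Capitals mark a TATAAA match on the plus strand and a CCAAT match on the minus strand, read here as its reverse complement.

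Col1a2: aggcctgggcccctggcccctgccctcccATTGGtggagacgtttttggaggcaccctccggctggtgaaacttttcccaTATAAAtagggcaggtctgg

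The TATAAA match begins 170 bases before the RefSeq start and the CCAAT match 221 bases before it. The RefSeq transcript of Col1a2 begins with ATG, and the distances are from that annotated start. TATAAA was found on either strand in 5.43% and CCAAT in 14.5% of 33469 windows placed in the same way before RefSeq starts, that of Col1a2 included. The window of Col1a2 is shown for its motifs, so these shares are background and do not test the matches. How the other entries begin was not examined, so windows at the same distance need not lie at like positions in a promoter. Of the other motifs searched on both strands, GGGCGG was in 10.4% and TGANTCA in 2.66% of windows, and neither was in this window of Col1a2. None of the motifs searched overlaps another in its letters here, and a match describes letters only.

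Col3a1 encodes the chain of type III collagen, which forms mixed fibrils with type I collagen in soft tissues. For NoOp replicates 1 to 3 it stood at 67.0, 62.0 and 37.9 CPM, whereas SNx replicates 1 to 3 reached 995, 653 and 154 CPM. The lowest SNx library was 2.30 times the highest NoOp library. The means were 55.7 ± 15.5 CPM in NoOp and 601 ± 423 CPM in SNx (SD, n = 3 each), and the ratio of means was 10.8. Its log2 fold change was 3.08 (SE 0.60, limma adjusted p = 0.00793), or 8.44-fold with a 95% confidence interval from 3.22-fold to 22.1-fold. Among all genes by estimated count it was rank 3006, 3214 and 4965 for NoOp replicates 1 to 3, and rank 70, 91 and 990 for SNx replicates 1 to 3.

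Fn1 was the most even of the 4 genes. Levels of 75.0, 96.0 and 66.0 CPM in the NoOp kidneys compared with 468, 440 and 197 CPM in the SNx kidneys, each in the order of replicates 1 to 3. SNx replicates 1 and 2 were close to each other, unlike in the collagens, and SNx replicate 3 was 2.05 times the highest NoOp library. Mean levels were 79.0 ± 15.4 CPM in NoOp and 368 ± 149 CPM in SNx (SD, n = 3 each). The log2 fold change of 2.13 was of the same size as that of Col1a2, but its SE was 0.32 and its limma adjusted p = 0.00380 was the smallest of the 4 genes. The fold change was 4.36 with a 95% confidence interval from 2.61-fold to 7.29-fold.

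The highest and the lowest SNx library each moved the size of these rises. Without SNx replicate 1 the fold change from limma was 7.38 for Col1a1, 2.80 for Col1a2, 5.68 for Col3a1 and 3.71 for Fn1. Without SNx replicate 3 it was 21.0 for Col1a1, 7.94 for Col1a2, 14.9 for Col3a1 and 5.79 for Fn1. Col1a1, Col3a1 and Fn1 kept a limma adjusted p under 0.05 whichever library was left out, with highest values of 0.0273, 0.0313 and 0.0203. Over all genes tested, 2620 of 13644 were called higher with all 6 libraries. Without NoOp replicates 1, 2 and 3 these were 1861 of 14018, 1575 of 13996 and 1497 of 14009. Without SNx replicates 1, 2 and 3 they were 1970 of 13859, 1785 of 13800 and 3201 of 14002.

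**Figure D2:**
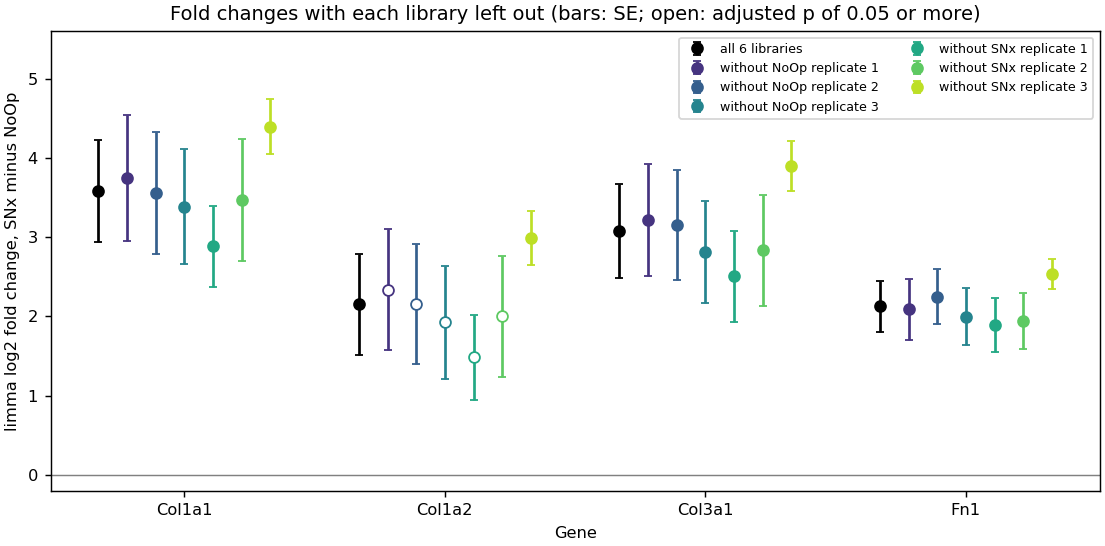
Limma log2 fold change (SNx minus NoOp) with its standard error for each gene, from all 6 libraries (black) and with each library left out in turn; open points have an adjusted p of 0.05 or more. The 5 open points all belong to Col1a2, and the highest point of each gene is the fit without SNx replicate 3.

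Library titles carry numbers from 2 separate ranges, whose meaning the labels do not state. SNx replicates 1 and 2 and NoOp replicate 1 are in the first, and SNx replicate 3 and NoOp replicates 2 and 3 in the second. Within the first range, the fold from the difference of mean log2 CPM (SNx over NoOp) was 16.0 for Col1a1, 6.003 for Col1a2, 12.0 for Col3a1 and 6.04 for Fn1. In the second range it was 4.62 for Col1a1, 1.69 for Col1a2, 3.17 for Col3a1 and 2.47 for Fn1. Each range holds a single library of 1 group, so these are values without a test. With the range as a term in limma, all 4 genes still passed, with log2 fold changes of 3.14, 1.66, 2.61 and 1.95 for Col1a1, Col1a2, Col3a1 and Fn1, and the highest limma adjusted p was 0.0296, for Col1a2. The part of the range in the lower values of SNx replicate 3 was not tested beyond this.

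Together the 4 genes took 0.0217%, 0.0230% and 0.0152% of all estimated counts of NoOp replicates 1 to 3. Their shares were 0.305%, 0.215% and 0.0535% for SNx replicates 1 to 3, with a 95% Wilson interval from 0.0521% to 0.0550% for the lowest of them. The SNx mean was 9.59 times the NoOp mean, at 0.191% ± 0.127 against 0.0199% ± 0.00418 (SD, n = 3 each). The exact two-sided permutation p for the difference was 0.1, the smallest that 3 libraries against 3 can give. SNx replicate 3 held 2.33 times the share of the highest NoOp library.

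**Figure D3:**
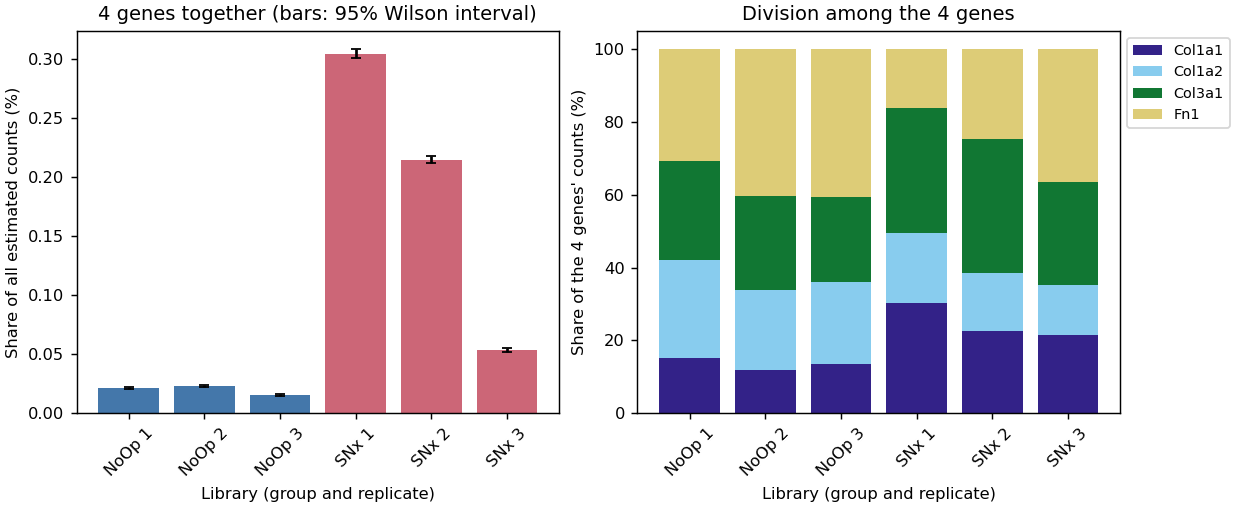
Left, share of all estimated counts held by the 4 genes in each library in percent, with 95% Wilson intervals; right, how the counts of the 4 genes divided among them in percent. The joint share is highest in SNx replicate 1 at 0.305%, and Col1a1 takes a larger part of it in every SNx library than in any NoOp library.

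The division of these counts among the 4 genes was also compared. Col1a1 made up 13.5% ± 1.57 of them in NoOp and 24.7% ± 4.79 in SNx, whereas Col1a2 made up 23.9% ± 2.74 and 16.3% ± 2.81 (SD, n = 3 each). The groups did not overlap for either gene, and both had an exact two-sided permutation p of 0.1, the smallest possible. The part of Fn1 was 25.8% ± 10.2 for SNx against 37.1% ± 5.65 for NoOp (SD, n = 3 each). The groups overlapped (exact two-sided permutation p = 0.2). Because longer transcripts give more counts and transcript lengths were not used here, these shares are not molar shares.

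The ratio between members of the same library does not depend on how libraries are scaled. All 6 pairs were compared, and the smallest difference between single SNx and NoOp libraries was largest, at 1.27 on the log2 scale, for the ratio of the 2 chains of type I collagen. The ratio of Col1a1 to Col1a2 counts was 0.558, 0.545 and 0.588 for NoOp replicates 1 to 3, but 1.56, 1.42 and 1.55 for SNx replicates 1 to 3. Each group was tight, with an SD of the log2 ratio of 0.06 in NoOp and 0.08 in SNx, while counting error alone was 0.09 to 0.12 in NoOp and 0.02 to 0.07 in SNx. The ratios of SNx replicates 1 and 3 differed by less than counting error, although its levels of both genes were far lower. The log2 ratio was 1.42 higher in SNx, or 2.68-fold, and the largest difference between single libraries was 1.52. The exact two-sided permutation p was 0.1, the smallest possible, and 0.15 after Benjamini-Hochberg adjustment over the 6 pairs. Within the ranges of library numbers the difference was 1.42 and 1.45.

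**Figure D4:**
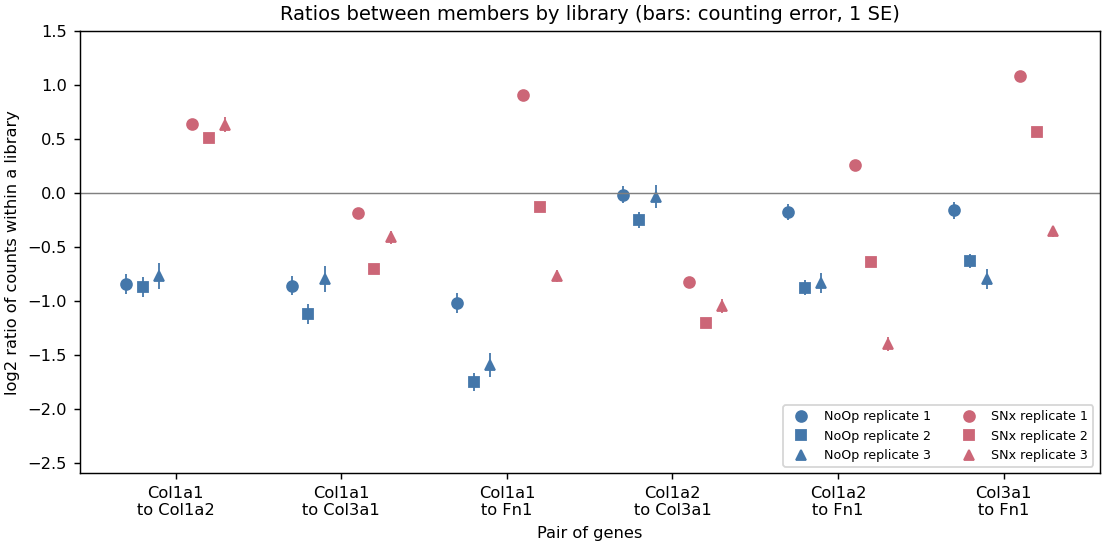
Log2 ratio of estimated counts within a library for the 6 pairs of genes, with 1 point per library and bars of 1 standard error from counting alone. The ratio of Col1a1 to Col1a2 lies near -0.83 in NoOp and 0.59 in SNx with little spread. The ratios to Fn1 spread widely over the SNx libraries and less widely over the NoOp libraries.

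Col3a1 was counted more often than either chain of type I collagen in every library, while its fold change lay between theirs. The lead of Col3a1 over Col1a2 was within counting error in NoOp replicates 1 and 3 (689 against 681 and 395 against 386 counts). Col1a2 to Col3a1 was 0.988, 0.842 and 0.977 for NoOp replicates 1 to 3, but 0.564, 0.433 and 0.484 for SNx replicates 1 to 3. The mean difference of the log2 ratio (SNx minus NoOp) was -0.93, and the groups did not overlap. Col1a1 to Col3a1 was 0.552, 0.459 and 0.575 in the NoOp libraries and 0.880, 0.615 and 0.752 in the SNx libraries, a mean log2 difference of 0.49 that ranged from 0.10 to 0.94 between single libraries. For both pairs the exact two-sided permutation p was 0.1, or 0.15 after adjustment over the 6 pairs.

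Fibronectin did not keep a fixed ratio to the collagens in either group, and the spread was wider in SNx. The SD of the log2 ratio of Col1a1, Col1a2 and Col3a1 to Fn1 was 0.39, 0.39 and 0.33 in NoOp. In SNx it was 0.84, 0.83 and 0.73. Col1a1 to Fn1 was 0.493, 0.297 and 0.330 for NoOp replicates 1 to 3, but 1.87, 0.912 and 0.588 for SNx replicates 1 to 3, again without overlap and with an adjusted exact p of 0.15. The mean difference of this log2 ratio was 1.46, and single-library differences ranged from 0.25 to 2.66. Col1a2 to Fn1 showed a mean log2 difference of 0.04 (exact two-sided permutation p = 1), but single-library differences ranged from -1.22 to 1.14, so the data do not show that both genes rose equally. Col3a1 to Fn1 was 0.96 higher in SNx on the log2 scale with overlapping groups (exact two-sided permutation p = 0.2, adjusted 0.24). The mean log2 level of the 3 collagen genes minus that of Fn1 was 0.82 higher in SNx, with overlap and an exact two-sided permutation p of 0.2. This value was 0.42 without SNx replicate 1 and 1.21 without SNx replicate 3.

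The collagen genes varied much more among the SNx libraries than did most genes at their level. The SD of log2 CPM over the 3 SNx libraries was 1.47 for Col1a1, 1.48 for Col1a2, 1.41 for Col3a1 and 0.70 for Fn1. Genes with a mean log2 CPM within 0.5 of the member had median SDs of 0.16, 0.16, 0.18 and 0.19. A larger SD in SNx was found for 0.522% of the 1534 genes near the level of Col1a1, 0.487% of the 1437 near Col1a2, 0.426% of the 938 near Col3a1 and 6.21% of the 918 near Fn1. In NoOp the SDs of the 4 genes were 0.38, 0.42, 0.44 and 0.27, where genes at their level had medians of 0.13. SNx replicate 3 carried much of the spread: without it the SDs of Col1a1, Col1a2, Col3a1 and Fn1 were 0.80, 0.70, 0.43 and 0.06, and their mean was 0.50 in place of 1.26. Genes were matched by mean level only and not by the size of their change. The wide spread is therefore not shown to be particular to these genes. All SDs here are descriptions of 3 libraries per group without a test.

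**Figure D5:**
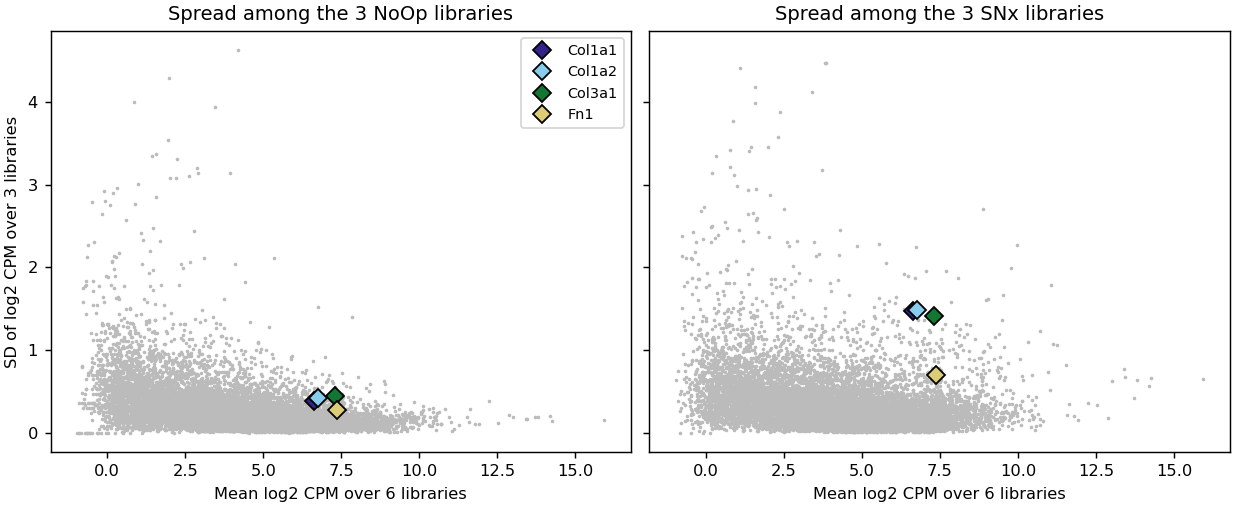
SD of log2 CPM over the 3 libraries of each group against mean log2 CPM over all 6 libraries, with all genes tested in grey and the 4 genes as diamonds. The 3 collagen genes lie between 1.41 and 1.48 in SNx, above nearly all genes of their level, and Fn1 lies at 0.70.

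The lower place of SNx replicate 3 was not equal in the 4 genes. On the log2 scale, from the NoOp mean at 0% to the average of the remaining SNx pair at 100%, it lay at 46.2% for Col1a1, 18.9% for Col1a2, 38.7% for Col3a1 and 52.6% for Fn1. SNx replicate 1 lay at 169%, 228%, 165% and 135% of its corresponding distance. The corresponding values for SNx replicate 2 were 110% for Col1a1, 123% for Col1a2, 126% for Col3a1 and 127% for Fn1. On this TMM-scaled level the order of the 3 libraries was the same in all 4 genes, but SNx replicates 1 and 2 were nearly equal in Fn1. As a share of all estimated counts, without TMM, their order turned for Fn1, at 0.0492% in SNx replicate 1 and 0.0532% in SNx replicate 2. RNA integrity varied widely over the samples of the study according to its methods. Values per library were not used here, and the part of RNA integrity in this order was not tested. Without SNx replicate 3, limma called 3201 of 14002 genes higher and 2563 lower. With all 6 libraries it called 2620 and 2271 of 13644. Whether the lower place of SNx replicate 3 is particular to the 4 genes was not tested.

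The profile over the 6 libraries of each gene, centred on its own mean log2 CPM, was compared with those of 12491 other genes with a mean log2 CPM of at least 1, by the root mean square (RMS) difference. Col3a1 and Col1a1 were 0.30 apart, and no other gene was nearer to Col3a1 than Col1a1, while 1 was nearer to Col1a1 than Col3a1. Col1a2 was 0.71 from Col1a1, and 263 other genes were nearer to Col1a2 than its partner chain. Fn1, at 0.53, was nearer to Col1a2 than Col1a1 was, with 58 other genes nearer still. Profiles were centred but not scaled, so this distance includes differences in the size of the rise. Within groups the log2 ratio of Col1a1 to Col1a2 had an SD of 0.06 in NoOp and 0.08 in SNx. For Col1a2 to Fn1 these SDs were 0.39 and 0.83, so Col1a2 kept closer step with Col1a1 inside each group. From Fn1, Col1a2 was the nearest of the collagen chains, and 669 other genes were nearer to Fn1 than Col1a2. All profiles share the same 6 libraries and the same groups, so these distances are descriptions.

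The nearest profiles of all are given by identifier. ENSRNOG00000004610 differed from Col1a1 by an RMS of 0.09, and had 16, 16 and 9 counts for NoOp replicates 1 to 3 against 505, 243 and 52 for SNx replicates 1 to 3. Its own log2 fold change was 3.83 (SE 1.34, limma adjusted p = 0.0590), which did not pass, and the offset of the log scale lowers the contrast of so few counts. ENSRNOG00000001254 differed from Col1a2 by 0.10, and had 413, 363 and 222 counts for NoOp replicates 1 to 3 against 3195, 2375 and 462 for SNx replicates 1 to 3. Its log2 fold change was 2.25 (SE 0.64, limma adjusted p = 0.0294).

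The authors' normalized table gave nearly the same levels for the genes it holds. For Col1a1, Col3a1 and Fn1 its log2 CPM differed from the scaled values by at most 0.04 in any library. Limma on that table gave log2 fold changes of 3.62 for Col1a1, 3.11 for Col3a1 and 2.14 for Fn1, with limma adjusted p = 0.00532, 0.00835 and 0.00332. The copy of that table used here gives no value for Col1a2, so its rise rests on the estimated counts alone.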

How the data were processed

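Ribosomal RNA-depleted, strand-specific libraries from the kidneys of 3 SNx and 3 NoOp rats had been sequenced in paired-end mode. The authors quantified transcripts with Salmon (per the labels) against Rn6. According to the methods, tximport then summarised them in length-scaled TPM units. The deposited estimated counts are whole numbers and were used as deposited. Whether they carry that scaling was not examined, and if they do, the intervals from counting are approximate. The deposited normalized table holds log2 CPM that the authors made with voom in limma; its gene filter is not given in the sources used here. The 12 single-library files equalled their series columns.

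Groups came from the treatment label; replicates were numbered in order of deposition. Genes were filtered with filterByExpr (edgeR 4.0.16; minimum count 10, minimum total 15), TMM-scaled, voom-transformed and tested with limma 3.58.1 in R 4.3.3, two-sided, with Benjamini-Hochberg adjustment over 13644 genes at 0.05. Log2 CPM used a prior count of 2. Exact permutation tests (scipy 1.17.1) compared single values. DESeq2 1.42.0, the edgeR quasi-likelihood test, other scalings and filters, sample weights, the normalized table, a title-range term and leaving out each library were alternatives. The fits were tested on simulated data.

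The 4 genes and all lists were chosen with earlier results of these data known. The named genes were the 4 genes and the 2 nearest profiles. Symbols of the 4 genes follow the given pairing with identifiers; 0 identifiers matched the reference table, so the planned lists of other matrix genes and of cell type markers were not analysed. Transcript-level estimation can divide reads between similar genes, which was not examined.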

Additional observations from a re-analysis of the deposited data

How the results depend on the processing

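Settings that kept all 6 libraries left all 4 genes higher in SNx with an adjusted p under 0.05 wherever the gene was in the table. Their log2 fold changes ranged from 3.14 to 4.04 for Col1a1, 1.66 to 2.62 for Col1a2, 2.61 to 3.49 for Col3a1 and 1.95 to 2.36 for Fn1. Leaving out 1 library gave 1.49 to 2.99 for Col1a2, which passed only without SNx replicate 3 and then on 5 libraries, and 3 or 4 genes passed in all. Over all genes tested, those called higher ranged from 1497 to 3201 in these fits, against 2620 with all libraries. The mean SD of the 4 genes over the SNx libraries, 1.26, ranged from 0.50 without SNx replicate 3 to 1.73 without SNx replicate 2; the cause was not tested. The Col1a1 to Col1a2 difference stayed between 1.40 and 1.47. Of 98 values under other settings, 92 had the sign of the reported value and fell on its side of the threshold, or moved by less than the spread. This count says little about firmness. The exact p of shares and ratios cannot go under 0.1, or 0.2 with 1 library left out, so their side was fixed. A fall from 4 to 3 genes passing was counted as unchanged, as were joint values that lack Col1a2. The list counts were not run, and the normalized table gives no value for Col1a2. No paired analysis was run: the methods describe SNx and NoOp animals as separate rats, and the labels carry no replicate numbers.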

Other observations

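The copy of the authors' normalized table used here gives no value for Col1a2, although it was not a low transcript. Its 11921 estimated counts over the 6 libraries exceeded those of 11387 of the 12135 genes that the table holds. It was 1 of 1526 genes that passed the filter used here but have no value in that copy, 129 of which had at least as many counts. The gene filter behind the table was not given in the sources used here, and the reason was not tested.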
